A study of Mus musculus with 2 samples.

Results

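Adora2a, Adcy5, Pde10a, Ppp1r1b and Rgs9 are widely used as markers of the projection neurons of the striatum, and their loci were described here in DNase-seq libraries of cerebral cortex. The 5 genes were chosen by accessibility seen earlier in these same libraries, so their peaks, footprints and signals are given as a description and no test was run on them. They are 5 of 21755 protein-coding genes on chromosomes 1 to 19 and X. Each locus was the annotated gene body on mm10 with 10 kb either side, and every annotated transcription start site (TSS) with 500 bp either side was counted as a separate promoter.

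DNase-seq maps open chromatin: DNase I cuts DNA that is not wrapped in nucleosomes, and the density of cuts gives the signal. Each of 2 libraries came from the left cerebral cortex of a female B6CASTF1/J mouse aged 2 months, with no treatment named. Such mice are F1 offspring of the inbred strains C57BL/6J and CAST/EiJ. The labels call the libraries biological replicates 1 and 2 and number the females separately, although both carry 1 donor entry. The libraries were treated here as coming from 2 animals. All samples form 1 group and there is no striatal sample among them, so the genes were set beside the rest of the genome and beside other gene lists. The tissue was whole cortex, so few cells with an open site and many cells with a weakly open one cannot be told apart.

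The products of these genes act on 1 signalling route that the projection neurons of the striatum use to read dopamine and adenosine. Adora2a encodes the adenosine receptor that is most abundant in striatum and that raises cyclic AMP through a stimulatory G protein. Adcy5 encodes the adenylyl cyclase that makes most cyclic AMP in these neurons, and Pde10a encodes a phosphodiesterase that breaks down cyclic AMP and cyclic GMP. Ppp1r1b encodes DARPP-32, which becomes an inhibitor of protein phosphatase 1 when the cyclic AMP-dependent kinase PKA phosphorylates it. Rgs9 encodes a regulator of G-protein signalling that speeds the shutoff of G proteins below dopamine and opioid receptors. Within the brain, expression of these genes is highest in the striatum, but DARPP-32, for example, is also known from neurons of deep cortical layers.

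The strongest peak of Ppp1r1b, the promoter peaks of Rgs9 and Pde10a and the strongest peak of Adcy5 are printed because the results below turn on them. They are the plus strand of mm10, read from GRCm38.p6, with annotated untranslated sequence left out. Capitals mark bases inside a footprint of both libraries, where a footprint is a short stretch within open DNA that is protected from cutting. The Ppp1r1b sequence is chr11:98342661-98342900, upstream of the gene. The Rgs9 sequence is chr11:109298130-109298320, just outside the first exon of this minus-strand gene. The Pde10a sequence is chr17:8524901-8525140, upstream of the first TSS. The Adcy5 sequence is chr16:35270501-35270700, in intron 5, where introns are numbered along the longest protein-coding transcript of each gene.
Ppp1r1b upstream peak: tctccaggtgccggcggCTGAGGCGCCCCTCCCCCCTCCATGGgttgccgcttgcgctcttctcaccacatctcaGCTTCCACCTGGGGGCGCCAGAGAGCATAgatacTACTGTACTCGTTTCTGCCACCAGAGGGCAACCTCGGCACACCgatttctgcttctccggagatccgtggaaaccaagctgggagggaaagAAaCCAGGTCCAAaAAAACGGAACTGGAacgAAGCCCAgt
Rgs9 promoter peak: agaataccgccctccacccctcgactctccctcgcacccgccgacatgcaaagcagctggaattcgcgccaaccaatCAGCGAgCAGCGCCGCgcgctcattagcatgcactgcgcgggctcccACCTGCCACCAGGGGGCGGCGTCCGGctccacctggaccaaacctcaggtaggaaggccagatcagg
Pde10a promoter peak: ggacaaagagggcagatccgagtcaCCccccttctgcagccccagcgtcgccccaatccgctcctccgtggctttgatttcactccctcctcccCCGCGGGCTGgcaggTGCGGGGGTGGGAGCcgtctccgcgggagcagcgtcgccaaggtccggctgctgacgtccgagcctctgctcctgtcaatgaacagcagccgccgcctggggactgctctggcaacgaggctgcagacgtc
Adcy5 intron peak: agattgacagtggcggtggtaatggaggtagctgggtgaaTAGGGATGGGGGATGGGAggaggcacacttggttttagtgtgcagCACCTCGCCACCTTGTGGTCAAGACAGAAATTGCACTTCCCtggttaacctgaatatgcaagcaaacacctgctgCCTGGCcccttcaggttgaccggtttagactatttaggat
The footprints of both libraries covered 131 bases of the Ppp1r1b peak, 41 of the Rgs9 stretch, 27 of the Pde10a peak and 65 of the Adcy5 peak.

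Every one of the 5 genes had an open promoter in both animals, and the strength of that promoter differed widely between them. A TSS was called open when a peak of each library reached within 500 bp of it, and a gene when any of its TSSs was. The 5 genes were 5 of 5 called, beside 64.8% of all protein-coding genes. Signal is the authors' cut density scaled to read depth. The strongest promoter signal of Rgs9 was 3.94 in replicate 1 and 3.98 in replicate 2 (3.96 ± 0.027, SD, n = 2). Pde10a had 3.45 and 4.0 (3.72 ± 0.390). Adcy5 had 2.04 and 2.96 (2.50 ± 0.646). Rgs9 and Pde10a overlapped each other, and both lay above Adcy5 in both animals. Ppp1r1b had 1.35 and 1.90 (1.62 ± 0.389). Adora2a was lowest, with 0.920 and 1.14 (1.03 ± 0.154). With Adcy5 taken at its internal TSS, neither overlapped the other or any of the stronger 3 genes. At its first TSS Adcy5 had 1.55 and 1.23, which overlapped Ppp1r1b and lay above Adora2a in both animals. The median of the 5 was 2.50, beside 2.94 over the 14108 called genes. That median is the value of Adcy5 at an internal TSS with no protein product annotated, and it was 1.62 when TSSs of protein-coding transcripts alone were used. Of those called genes, 68.2% had a lower signal than Rgs9, 64% lower than Pde10a, 42.1% lower than Adcy5, 25.9% lower than Ppp1r1b and 14.7% lower than Adora2a.

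**Figure D1:**
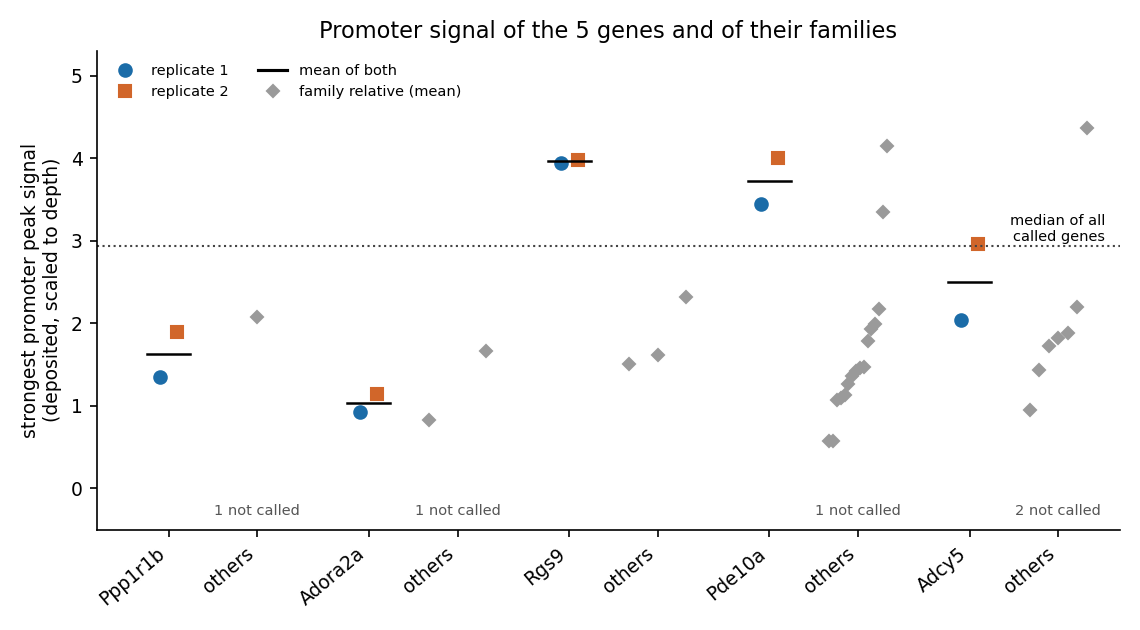
Strongest promoter peak signal (linear axis, deposited values scaled to depth) of each of the 5 genes in replicate 1 (circle) and replicate 2 (square) with their mean (line), each beside the other members of its gene family (diamonds, means of both libraries). Rgs9 and Pde10a lie above the dotted median of all called genes, 2.94, while Ppp1r1b and Adora2a lie below it in both libraries, and relatives with no promoter peak in both libraries are counted under the axis.

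Adora2a, the receptor gene, was nearly bare. Its body lies at chr10:75316877-75334784 on the plus strand, and its locus held 1 shared peak, where shared means that peaks of both libraries overlap by at least 1 bp. That peak, chr10:75316981-75317180, overlapped the first exon, beginning after its 5′ end, and served the TSSs of Adora2a-201 and Adora2a-203, which lie 225 bp apart. It carried 2 footprints in replicate 1 and 3 in replicate 2. The TSSs of Adora2a-204 and Adora2a-202, 6243 bp and 7981 bp downstream, had no peak, no footprint and no base pair listed as open in either library. No shared peak lay more than 1 kb from every annotated TSS, a class called distal below, whereas the median protein-coding locus held 1. The only other peak of the locus was in replicate 2 alone, at chr10:75336142-75336279 in the 3′ flank, with a signal of 0.182. At 2.64 shared peaks per 100 kb, the locus was denser than 29.1% of all protein-coding loci, whose median was 5.06.

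Adcy5, the cyclase gene, had its strongest peak far inside the gene. Its body lies at chr16:35154877-35305738 on the plus strand. The first TSS, that of the protein-coding transcript Adcy5-201, sits in a region with 73.7% GC. Its strongest peak had a signal of 1.55 in replicate 1 and 1.23 in replicate 2 (1.39 ± 0.230, SD, n = 2). A chain of 5 shared peaks ran from chr16:35154161 to 35156680 there, with mean signals between 0.999 and 1.39, so this promoter was broad and even. The peak of intron 5 printed above lies 115724 bp inside the gene and had 2.04 and 2.96. It was the stronger of the pair in both animals, without overlap, and it reached the TSS of Adcy5-202, a retained-intron transcript with no protein product annotated. Counted for protein-coding transcripts alone, the Adcy5 promoter signal is that of the first TSS. Intron 1 held the other shared peaks, at chr16:35164861-35165320 with 1.02 and 1.08 and at chr16:35200894-35201092 with 0.702 and 0.720. In all the locus held 8 shared peaks, 4.68 per 100 kb.

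Pde10a, the phosphodiesterase gene, had the most shared peaks, 27, in the longest locus, 481 kb. Its body lies at chr17:8525372-8986648 on the plus strand. Per 100 kb this was 5.61 shared peaks, close to the median of 5.06 over all loci. Of the 27 peaks, 18 were distal. Open TSSs formed separate promoters. The first pair, Pde10a-204 and Pde10a-207, shared the peak printed above, whose centre is 351 bp upstream of the first TSS. The next pair, Pde10a-208 and Pde10a-212, lies 1429 bp and 1654 bp further on, and its strongest peak had 1.15 and 1.19 (1.17 ± 0.0235, SD, n = 2). The third set, Pde10a-202, Pde10a-210 and Pde10a-205, lies 276321 bp and 276407 bp into the gene. There the peak at chr17:8800641-8801880 had 1.43 and 1.48 (1.45 ± 0.0354), and all 1001 bp of each promoter window were listed as open in both libraries. The upstream promoter had the higher signal in both animals, and the internal promoter peak was the widest merged peak at any called TSS of the 5 genes. Pde10a-204, Pde10a-208 and Pde10a-202 are protein-coding, so annotated protein-coding transcripts began within 500 bp of a shared peak at each of these places.

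Between these promoters lay the long intron 1 of Pde10a, with several strong distal sites. The site at chr17:8614261-8614460 had 2.36 and 2.73 (2.55 ± 0.257, SD, n = 2). The site at chr17:8592741-8592960 had 1.81 and 2.72 (2.26 ± 0.648). A weaker one, at chr17:8597861-8598080, had 1.02 and 1.36 (1.19 ± 0.242). The first and second exceeded the internal promoter in both animals. Downstream of that promoter, chr17:8858741-8858940 had 1.49 and 1.81 (1.65 ± 0.229). In the 3′ flank, the peak at chr17:8988201-8988440 had 1.59 and 2.17, and it lies at the TSS of the neighbour 1700010I14Rik. Gm17087, Gm15425 and Gm15426 lie inside the Pde10a body, and no shared peak of the locus overlapped any of them.

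Ppp1r1b, the gene of DARPP-32, had a modest promoter beside the strongest site of all 5 loci. Its body lies at chr11:98348404-98357796 on the plus strand. The locus held 10 shared peaks, 34.0 per 100 kb, a density above that of 99.1% of protein-coding loci, and 6 were distal. The 5′ flank held 4 shared peaks. The site printed above, chr11:98342661-98342900, had 7.11 in replicate 1 and 8.06 in replicate 2 (7.58 ± 0.677, SD, n = 2), stronger than 99.7% of all shared peaks. The site at chr11:98338481-98338720 had 3.70 and 3.31 (3.50 ± 0.270), and that at chr11:98345341-98345540 had 2.80 and 3.54 (3.17 ± 0.530). The fourth, chr11:98342071-98342271, had 0.911 and 0.884 (0.897 ± 0.0191). The first 3 of these exceeded the Ppp1r1b promoter, 1.35 and 1.90, in both animals, and the fourth lay below it in both. The nearest TSS to chr11:98338481-98338720 is that of Neurod2, a transcription factor gene of cortical excitatory neurons that starts 18.8 kb from Ppp1r1b, so the flank also lies near a cortical gene. Neurod2 itself had a promoter signal of 2.10 and 1.90. Which gene these sites act on was not measured.

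Within Ppp1r1b, 4 of 6 TSSs were closed. Those of Ppp1r1b-204 and Ppp1r1b-206, which share 1 TSS, and of Ppp1r1b-202, Ppp1r1b-205 and Ppp1r1b-203 lie between 1592 bp and 3085 bp from the first, and none had a base pair listed as open. The TSS of Ppp1r1b-207, a processed transcript that starts 6192 bp into the gene, had a peak of 0.983 and 1.17 (1.08 ± 0.130, SD, n = 2). 1700003D09Rik runs antisense over this part of the gene. The peak at chr11:98358201-98358740, with 1.90 and 2.10, lies 27 bp from a TSS of Stard3, the next gene downstream. DNase signal has no strand, so peaks there cannot be assigned to 1 of the overlapping genes.

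Rgs9, the G-protein regulator gene, had the highest promoter signal and little else of strength. Its body lies at chr11:109225355-109298129 on the minus strand. The peak chr11:109298101-109298320 serves the TSSs of Rgs9-201, Rgs9-203 and Rgs9-204, which lie within 63 bp. The other 5 shared peaks were distal and in introns, with mean signals between 0.405 and 1.05, so none reached the promoter's 3.94 and 3.98. The TSSs of Rgs9-202 and Rgs9-205, 47978 bp and 51164 bp downstream, had nothing listed as open in either library. No other annotated gene overlaps this locus. Its 6.47 shared peaks per 100 kb exceeded those of 58.1% of loci.

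**Figure D2:**
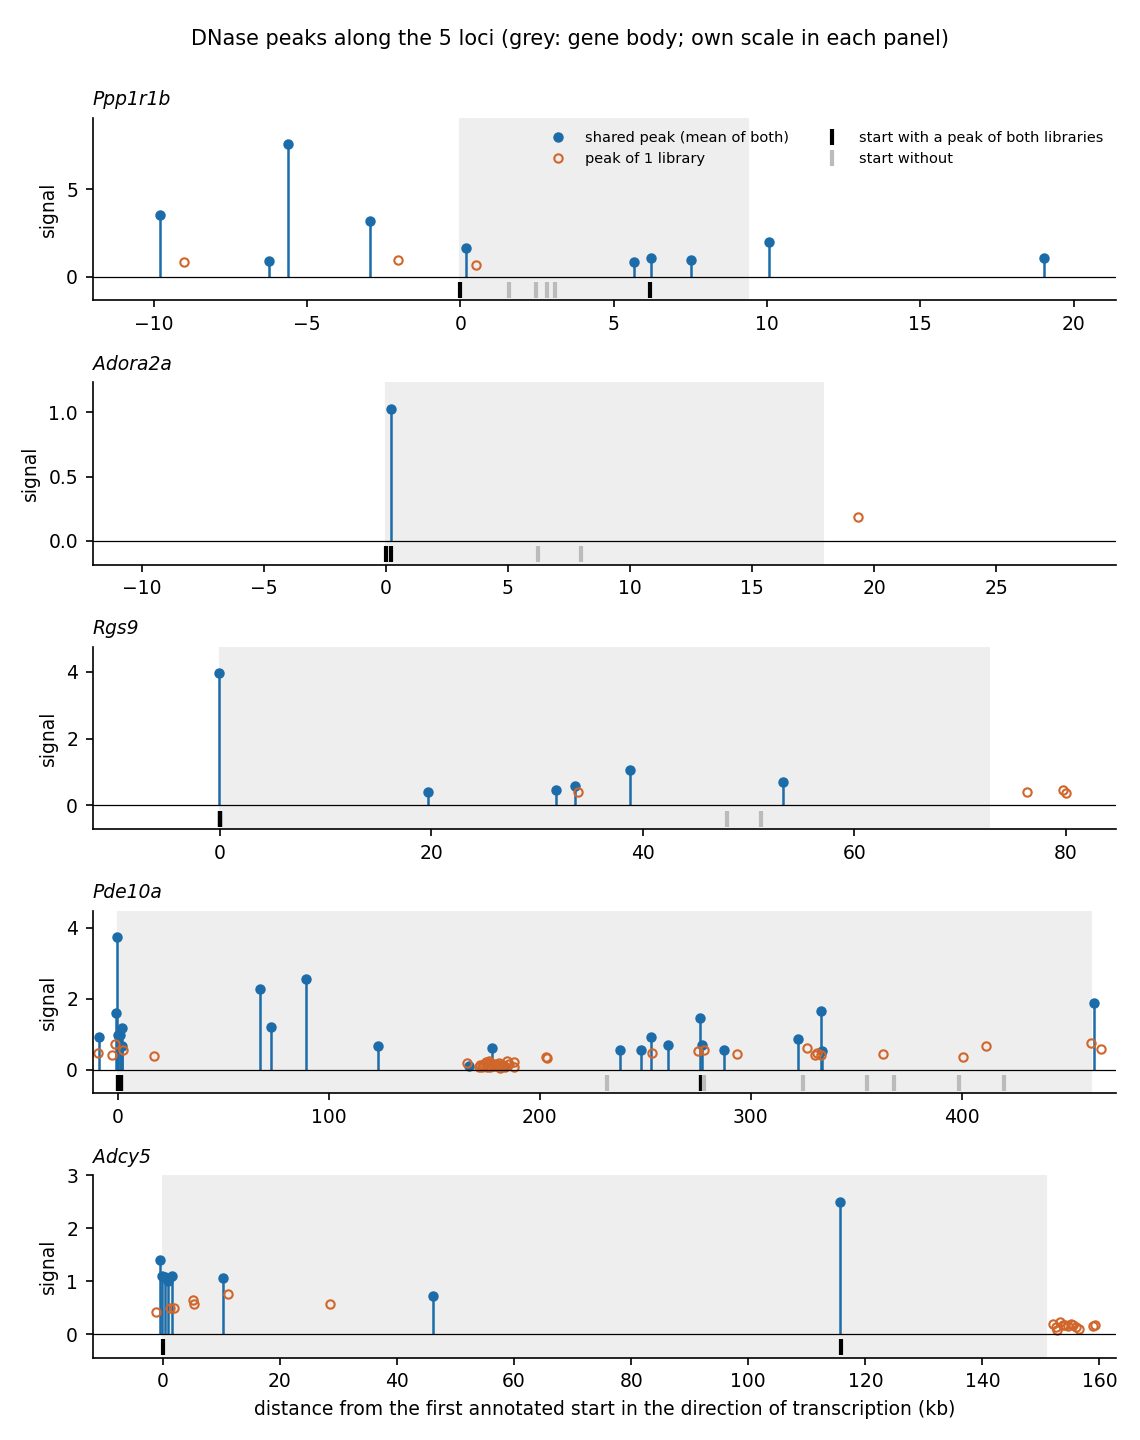
Peak signal (linear axis, own scale in each panel) against distance in kb from the first annotated TSS, in the direction of transcription, for each locus: filled circles are shared peaks at their mean signal, open circles peaks of 1 library, ticks annotated TSSs. Ppp1r1b has its tallest peaks upstream of the gene, with 7.58 at the highest, Adora2a has 1 shared peak, and Adcy5 has its tallest peak, 2.50, deep in the gene body.

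TSSs near the 5′ end of each gene were open and most of those further downstream were closed, in shares near those of other genes with an open promoter. Of 30 distinct TSSs of 32 transcripts, 15 were called, which is 50% beside 52.3% of the 93196 TSSs of all protein-coding genes, so the share was near the background. Of the 9 TSSs within 500 bp of a gene's first TSS, 9 were called, beside 95.3% of such TSSs over all genes with any called TSS. These 9 share peaks and stand for 5 promoters, 1 per gene. Of the 21 further downstream, 6 were called, beside 32.5% over all such genes. All 15 called TSSs also had footprints of both libraries that overlapped, that is 15 of 30 beside 47.8% of all TSSs. Of the 15 uncalled TSSs, 14 had no base pair listed with a cut-rate false discovery rate (FDR) below 0.05. The exception was Pde10a-213, with a peak of 0.562 in replicate 1 alone, 244 bp listed and a lowest FDR of 0.0054.

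Sequence composition separated the open from the closed TSSs in part. Within 500 bp of the TSS, called TSSs of the 5 genes had a median GC content of 57.7%, and uncalled ones had 52.7%. Over all protein-coding genes the medians were 59.3% for called and 47.0% for uncalled TSSs. The ratio of observed to expected CpG was 0.639 at called and 0.262 at uncalled TSSs of the 5 genes, beside 0.722 and 0.222 over all genes. The ranges of the 5 genes overlapped, from 0.153 to 0.929 at called and from 0.132 to 0.410 at uncalled TSSs. The called TSSs of Pde10a-212, Ppp1r1b-207, Pde10a-208 and Adcy5-202 were CpG-poor, with ratios of 0.153, 0.210, 0.213 and 0.214, within the range of the closed ones.

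Several strong sites of the 5 loci held the sequence word of CTCF, a zinc-finger protein that binds insulators and anchors chromatin loops. The word was a 12-letter consensus searched on both strands in the middle 150 bp of each shared peak. It was found in 6 of the 52 shared peaks, 11.5%, beside 6.70% of all 80522 shared peaks. The 6 matches are printed in the direction of the word, with 9 bases either side, and capitals mark the word. They lie on the plus strand at chr11:98342778-98342807 for Ppp1r1b and chr11:109298250-109298279 for Rgs9. On the minus strand they lie at chr17:8524520-8524549, chr17:8592839-8592868 and chr17:8597950-8597979 for Pde10a, and chr16:35270583-35270612 for Adcy5.
Ppp1r1b upstream: tcgtttctgCCACCAGAGGGCaacctcggc
Rgs9 promoter: tcccacctgCCACCAGGGGGCggcgtccgg
Pde10a upstream: aaccacaaaCCCCAAGGAGGCcaaaggcct
Pde10a intron 1, first: cttcctctcCCGCCAGATGGCagcagacgc
Pde10a intron 1, second: agctgtgaaCCACTAGGTGGCagcaaacag
Adcy5 intron 5: ctgtcttgaCCACAAGGTGGCgaggtgctg
Of these matches, 5 overlapped a footprint in both libraries, and that upstream of Pde10a overlapped one in replicate 1 alone. The peaks with the word included the strongest site of Ppp1r1b, Rgs9 and Adcy5, and 4 of the 10 strongest shared peaks of the 5 loci. Of all shared peaks at least as strong as the weakest of these 10, with a mean signal of 1.88, 11.1% held the word. With 10 peaks, nothing particular to these loci was read from that. The 6 peaks with the word had a median signal of 2.38, beside 0.928 for the 46 peaks without it. Over all shared peaks the same medians were 1.36 for 5394 peaks with the word and 0.767 for those without. Adora2a had no match. A match is a description of letters, and binding was not measured.

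Other words were about as common in the 52 peaks as in all shared peaks, or rarer. The CCAAT box, CCAAT, was in 11 of 52, 21.2%, beside 16.9% of all shared peaks. The core of the CRE, TGACG, which belongs to the site of CREB, the factor that PKA activates, was in 6, 11.5% beside 10.8%. The full CRE, TGACGTCA, was in 0 of 52 beside 0.790%. The AP-1 site, TGANTCA, bound by Fos and Jun proteins, was in 1, 1.92% beside 7.44%. The E-box CAGATGG of NEUROD-type factors was in 2, 3.85% beside 7.07%, and 1 of these, in intron 1 of Pde10a, lies inside the CTCF match at chr17:8592848-8592859. The E-box CAGCTG was in 6, 11.5% beside 13.6%, and the SP/KLF site GGGCGGGG in 4, 7.69% beside 6.06%. EGR sites, GCGNGGGCG, were in 1, 1.92% beside 2.41%, and the TATA box TATAAA in 2, 3.85% beside 3.36%. The FOX word TGTTTAC, the POU octamer ATGCAAAT and the MEF2, NFI, RFX, NRF1 and retinoic acid response words were in none, and each of these was in at most 1.87% of all shared peaks. In the printed promoters, Rgs9 holds a CCAAT box at chr11:109298202-109298206 and Pde10a holds one at chr17:8524953-8524957. Pde10a also holds the CRE core at chr17:8525062-8525066, in a footprint of replicate 1 alone. With 52 peaks, each of these counts is small.

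The 2 animals resembled each other at shared sites of these genes. The log2 ratio of replicate 2 to replicate 1 had a median of 0.13 and an SD of 0.36 over the 52 shared peaks, beside 0.10 and 0.35 over all shared peaks. It ranged from -0.73 in Rgs9 to 1.03 in Pde10a. All 6 peaks with the CTCF word had the higher signal in replicate 2, as had 29 of the 46 without it. The same held across the genome, where 82.8% of peaks with the word and 59.0% of those without were higher in replicate 2. The first Adcy5 TSS went the other way, with 1.23 in replicate 2 and 1.55 in replicate 1. The source of this difference between the animals was not tested.

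**Figure D3:**
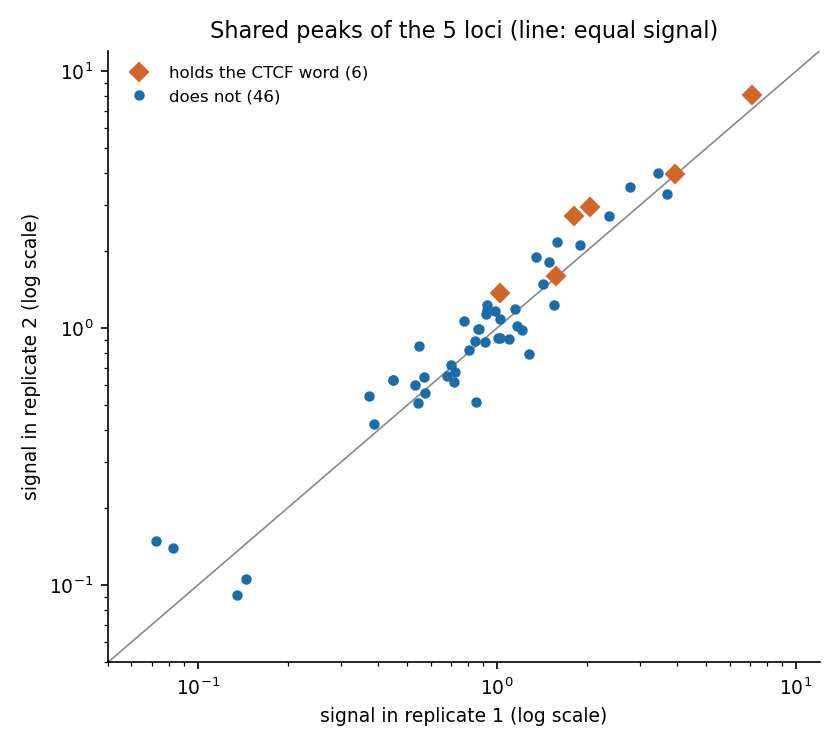
Signal of the 52 shared peaks of the 5 loci in replicate 1 (horizontal, log scale) against replicate 2 (vertical, log scale), where the line marks equal signal. The 6 peaks that hold the CTCF word (diamonds) lie on or above the line, and the strongest of them is the site upstream of Ppp1r1b, at 7.11 and 8.06.

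Peaks called in 1 library were frequent and mostly weak. The 5 loci held 126 merged peaks, of which 52 were shared, 41 came from replicate 1 alone and 33 from replicate 2 alone. Counted in 1 library, the loci held 100 peaks in replicate 1 and 90 in replicate 2. The shared part was 41.3%, beside 52.2% of all 154220 merged peaks. Of the merged peaks, 31 and 13 lay in the pair of weak stretches described below, where 5 and 0 were shared. The single-library peaks had median signals of 0.252 in replicate 1 and 0.187 in replicate 2, and shared peaks had medians of 0.925 and 0.987. Of the 52 shared peaks, 36 held a footprint common to both libraries, 69.2% beside 68.1% of all shared peaks.

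Many of these weak calls lay in a pair of short stretches, whose bounds were set after their values were seen. In intron 1 of Pde10a, chr17:8690641-8713216 held 31 merged peaks within 22.6 kb, between 165 kb and 188 kb from the first TSS. Their higher signal was below 0.3 in 30 of 31, with a median of 0.136, and 26 were called in 1 library alone. The exception, chr17:8702621-8702940, had 0.572 and 0.644. The 42 merged peaks of the locus outside the stretch all reached at least 0.327. Despite the low signal, 24 of the 30 peaks below 0.3 were in the stricter peak list (FDR 0.001) of at least 1 library, while genome-wide 36.6% of merged peaks below 0.3 were. Of the 31, 17 held no 31-base word that also occurs elsewhere in the genome. In the others the share of such words ran from 2% to 100%, and only chr17:8696662-8696743 reached 100%.

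A similar stretch lay in the 3′ flank of Adcy5, at chr16:35306681-35314160. It held 13 merged peaks in 7.48 kb with signals from 0.0775 to 0.223, of which 11 were in replicate 1 alone, 2 in replicate 2 alone and 0 shared. The 15 other merged peaks of the Adcy5 locus reached at least 0.423. No 31-base word of the 12 peaks long enough to hold one occurred elsewhere in the genome. Sec22a overlaps the end of this flank. Of all merged peaks in the genome, 22.8% had no signal of 0.3 or more, and of those in the 5 loci 34.9% had none. Leaving out peaks below 0.3 left 48 of the 52 shared peaks and all 15 called TSSs. The source of these stretches was not tested.

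**Figure D4:**
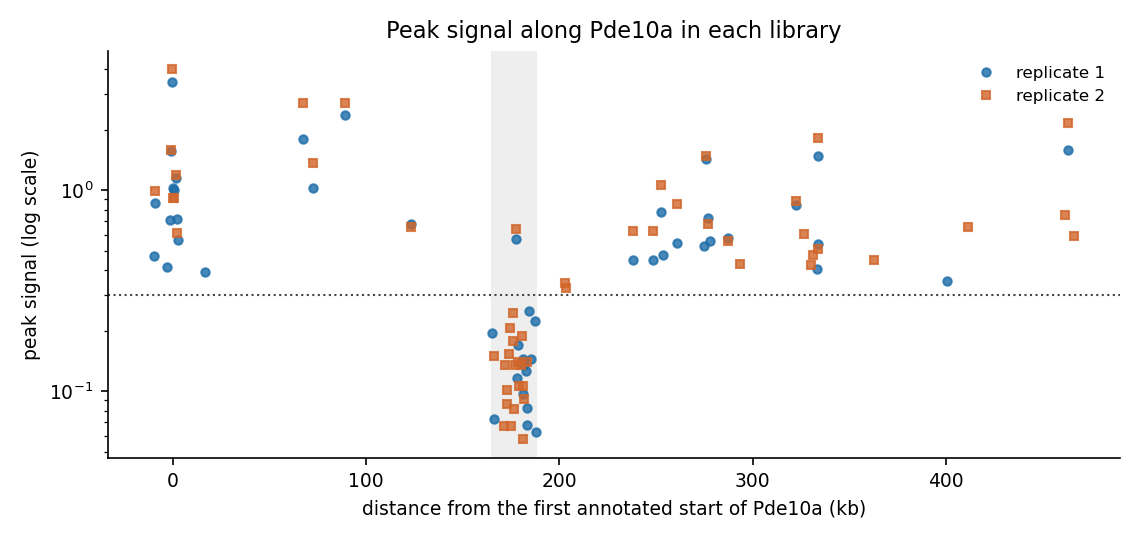
Signal of every merged peak of the Pde10a locus (log scale) against distance in kb from the first annotated TSS, in replicate 1 (circles) and replicate 2 (squares). In the shaded stretch of intron 1, 30 of 31 peaks lie below the dotted line at 0.3, and no peak outside it does.

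Within their own gene families the 5 genes ranked first or second by promoter signal, with Adcy5 taken at its internal TSS. They were chosen by accessibility, so these ranks are a description. Rgs9 was the highest of 4 R7 regulators, the subfamily that pairs with Gβ5. Rgs7 had 2.13 and 2.50, Rgs6 1.73 and 1.5, and Rgs11 1.65 and 1.36, all below Rgs9 in both animals. Pde10a was second of 18 phosphodiesterase genes, with 17 called. Pde2a, which breaks down cyclic AMP when cyclic GMP binds it, had 3.77 and 4.53 and overlapped Pde10a, and Pde7a had 3.11 and 3.58 and also overlapped it. The lowest called were Pde1c, with 0.484 and 0.672, and Pde11a, with 0.581 and 0.576, and Pde4c had a promoter peak in replicate 1 alone, 0.615. Between these, Pde7b had 1.96 and 2.38, Pde8a 1.76 and 2.21, Pde4a 2.02 and 1.84, and Pde4d 1.75 and 1.82. Pde4b had 1.38 and 1.57, Pde8b 1.57 and 1.35, Pde3b 1.67 and 1.06, and Pde3a 1.36 and 1.16. Pde9a had 1.23 and 1.04, Pde5a 1.16 and 1.04, and Pde1a 1.19 and 0.951. Pde1b, a calcium-activated enzyme also rich in striatum, had 1.51 and 1.34. All 12 of these means lay between 1.07 and 2.17, below the lower of the Pde10a values.

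Adcy5 was second of 10 adenylyl cyclase genes, behind Adcy9 with 4.40 and 4.34. Adcy3 followed with 2.42 and 1.98, which overlapped Adcy5, then Adcy8 with 1.97 and 1.80, Adcy6 with 1.89 and 1.74, Adcy1 with 1.60 and 1.85, Adcy2 with 1.53 and 1.34 and Adcy7 with 1.03 and 0.860. Adcy10 had no promoter peak, and Adcy4 had one in replicate 1 alone, 0.339. With its first TSS, 1.55 and 1.23, in place of the internal one, Adcy5 would lie beside Adcy2. Adora2a was second of 4 adenosine receptor genes. Adora1, the inhibitory receptor that is common in cortex, had 1.67 and 1.65, above Adora2a in both animals. Adora2b had 0.838 and 0.812, below Adora2a in both, and Adora3 had no promoter peak. Ppp1r1b had 1.35 and 1.90, against 1.89 and 2.26 for Ppp1r1a, the gene of inhibitor-1, which overlapped it narrowly, and Ppp1r1c had no promoter peak. Ppp1r1a also had a dense locus, with 32.5 shared peaks per 100 kb beside 34.0 for Ppp1r1b.

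Other markers of striatal projection neurons were open as well. Of 26 such genes found, 25 had a called promoter, beside 64.8% of all protein-coding genes. The list was not limited to genes that are silent in cortex, and expression was not measured here. Counted by TSS, 111 of 181 were called, beside 52.3% of all TSSs. The median signal of the called genes was 1.32, beside 2.94 for all called genes. The 5 genes were chosen by accessibility in these libraries, so their own median of 2.50, or 1.62 at protein-coding TSSs alone, was not compared with that of this list. The summed promoter signal of the markers in this list was 38.6 in replicate 1 and 37.7 in replicate 2. The highest were Gng7, with 3.08 and 4.10, and Kcnh4, with 2.41 and 3.35. The lowest were Tac1, with 0.368 and 0.331, and Drd2, the gene of the D2 dopamine receptor, with 0.436 and 0.394. Drd1, the gene of the D1 receptor, had 2.49 and 2.61, and Six3 had no promoter peak. Gng7 lay above Adcy5 at its internal TSS in both animals, while Kcnh4 and Drd1 overlapped it. Gng7, Kcnh4 and Drd1 each lay above Ppp1r1b and Adora2a in both animals. Gng7 and Kcnh4 were named as the highest of the list, and Drd1 after its value was seen. These orders are therefore a description. Adora2a and Drd2 mark the same neurons of the indirect pathway. Drd2 lay below the list median of 1.32, but so did Tac1, which does not mark those neurons.

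Genes of the partners of these proteins were all open. Of 25 genes of dopamine, adenosine and cyclic AMP signalling, all 25 had a called promoter, beside 64.8% of all protein-coding genes. Counted by TSS, 109 of 165 were called, beside 52.3% of all TSSs. The median signal was 3.81, beside 2.94 for all called genes. The highest were Ppp3ca, a calcineurin subunit gene whose product removes a phosphate from DARPP-32, with 7.27 and 9.13, and Creb1, with 5.71 and 8.47. The lowest were Drd5, with 0.460 and 0.360, and Drd2. Of these genes, 7 also stand in the lists of striatal markers or phosphodiesterases, so the lists are not independent.

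Markers of cortical excitatory neurons were open throughout, and those of cholinergic neurons were weakest. All 12 cortical excitatory markers had a called promoter, beside 64.8% of all protein-coding genes. Counted by TSS, 32 of 45 were called, beside 52.3% of all TSSs. The median signal was 1.68 and the median density 21.5 shared peaks per 100 kb, beside 5.06 for all loci. The highest were Camk2a, with 2.70 and 3.31, and Rorb, with 2.73 and 3.01, and the lowest were Fezf2, with 0.814 and 0.634, and Tbr1, with 1.19 and 0.951. Of 9 GABAergic markers 7 were called, as were 20 of their 37 TSSs, and the median signal was 0.900. Dlx1 had 0.949 and 1.08, and the lowest were Lhx6, with 0.543 and 0.543, and Slc32a1, with 0.620 and 0.701. Dlx6 had no promoter peak, and Dlx2 had one in replicate 1 alone, 0.925. Of 5 cholinergic markers 4 were called, as were 5 of their 15 TSSs, and the median signal was 0.498. Lhx8 had 0.630 and 0.581, Slc5a7 had 0.170 and 0.207 and Slc18a3 0.368 and 0.413 at the low end, and Chat had no promoter peak. Whether striatal tissue entered the dissection was not tested.

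Set beside the 108 genes of all these lists, each of the 5 resembled different genes. Likeness was the distance over strongest promoter signal and peaks per 100 kb in both libraries, as log2 of the value plus 0.1. Ppp1r1b was nearest to Neurod6, Slc17a7 and Bhlhe22, all from the cortical excitatory list, at distances of 0.405, 0.573 and 0.633. The Ppp1r1b density includes flank peaks whose nearest TSS is that of Neurod2 or Stard3. Of its 10 shared peaks, 4 lay in the gene body. Adora2a was nearest to Pde3a, Pde3b and Pde5a, at 0.693, 1.07 and 1.11. Rgs9 was nearest to Ppp1cb, Prkar2b and Pde10a, at 0.579, 0.736 and 0.914. Pde10a was nearest to Adcy9, Prkar1b and Pde2a, at 0.410, 0.468 and 0.809. Adcy5, taken at its internal TSS, was nearest to Drd1, Rgs7bp and Akap5, at 0.391, 0.662 and 0.677. All peaks of each library were counted for these distances, so the weak stretches of Adcy5 and Pde10a were included. Distances with the first Adcy5 TSS or without those stretches were not computed. All 5 loci held a shared peak, beside 81% of all protein-coding loci.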

How the data were processed

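DNase-seq calls of 2 libraries, treated as 1 per animal, were used as deposited. Peak signal is the authors' read-depth normalized cut density. The deposited footprint tables and cut-rate tables hold an FDR, that is an adjusted p-value or q-value, of 0.01 throughout for footprints and below 0.05 for listed cut-rate stretches. Peaks were called on each library alone, per the file headers, from alignments to mm10. The aligner, peak caller and footprint caller were not given in the sources used here. Signal values were whole multiples of a step that corresponds, if 1 step is 1 cut, to 206 M and 208 M cuts in replicates 1 and 2, so depth differed little. Replicate 1 had 128323 peaks and 340109 footprints, and replicate 2 had 119651 and 284674. Reads of the CAST/EiJ genome copy may align less often, and alleles were not analysed here.

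Overlapping peaks of the larger list (FDR 0.05) were merged where they had 1 bp or more in common, and counted as shared where both libraries contributed. Its signal in a library is the highest of its peaks there. Genes and TSSs, of every transcript type for the 5 genes, came from GENCODE M21 on GRCm38.p6. A distal peak has its centre over 1 kb from every annotated TSS of any gene. Words were searched in the middle 150 bp. Python 3.11.15, numpy 2.4.6, pandas 2.3.3, pysam 0.24.0, samtools 1.23.1 and matplotlib 3.10.9 were used, and the overlap and word counts were tested on simulated data. The 5 genes, the lists and the words were chosen with earlier results of these data known, and nothing was tested. Named were the 5 genes, every relative of their families within the summary given, the highest and lowest 2 of each list (some of these values are not reported here), genes without a promoter peak, genes overlapping the loci and the 3 nearest by likeness; Drd1 and Neurod2 were added after their values were seen. Of 27 striatal markers listed, 1 was not found as a protein-coding gene. Alternatives were single libraries, the stricter list, the overlap, flank, promoter window and TSS set, a signal minimum, footprint ends and the window for words.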

Additional observations from a re-analysis of the deposited data

How the results depend on the processing

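Of 29 alternatives for totals over the 5 loci, 19 stayed within 1.5 times of the main value, or within 1 SD for signal. The 52 shared peaks became 90 to 100 when 1 library was used alone, where each peak of that library counts, and 92 with 50 kb either side of the genes; the smaller peak list, the 50% overlap, the gene body alone, the upper 50% of peaks by signal and a signal of at least 0.3 (added after seeing the data) gave 37 to 48. The 15 called TSSs became 10 for protein-coding transcripts, 11 when TSSs within 100 bp were counted once, and 14 to 16 under every other alternative. Footprints of replicate 1 that overlap one of replicate 2 numbered 81 in the 5 loci, against 186 to 232 in single libraries and 30 when both ends had to match within 2 bp, so exact footprint edges were seldom repeated. The median signal of shared peaks, 0.984, was 1.09 with the smaller peak list and 0.925 to 0.987 in single libraries. Word matches, 39 peaks summed over the 17 words, became 79 in whole merged peaks. The median strongest promoter signal of the 5 genes, 2.50, was 1.62 at TSSs of protein-coding transcripts (added after seeing the data). For single genes, 73 of 105 alternatives stayed within 1.5 times: Rgs9 kept 2 of 6 shared peaks in the upper 50% by signal, and Ppp1r1b kept 4 of 10 in the gene body alone. The cut-rate threshold did not change which number of TSSs, 15, was open in both libraries. No paired analysis was possible because there is 1 group. With 2 animals, an SD is itself uncertain.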
